A study of Mus musculus with 6 samples.

Results

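The microRNA (miRNA) genes mir-143 and mir-145a, 2 of the 898 miRNA genes in the deposited table, were taken by their names as neighbours at 1 genomic locus, by a rule that uses no measured value. They were followed from pluripotent mouse embryonic stem cells (ESCs) to the neuronal cells (NCs) that retinoic acid (RA) yields. All samples came from a single ESC line, E14Tg2a, so they stand for 1 genotype. ESCs were kept with leukemia inhibitory factor (LIF), which sustains self-renewal. For NCs, LIF was withdrawn from monolayers and 1 µM RA was given for 48 hours. RNA of each sample was drawn from a pair of culture plates, and 3 samples per group were sequenced as small-RNA libraries. The methods of the study state that replicates for RNA-seq were handled separately. Independence of replicates is stated for its mRNA sequencing and not for these libraries. The p-values therefore measure the spread between these libraries, which may be in part technical.

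miRNAs are short RNAs cut from hairpin precursors. Within Argonaute proteins they pair with messenger RNAs, chiefly through the bases near their 5′ end called the seed, and lower the output of those messengers. miR-143 and miR-145 are cut from a shared precursor transcript. They are best known from vascular smooth muscle and other mesenchymal cells, where they favour the contractile state. In human embryonic stem cells miR-145 is known to repress the messengers of the pluripotency factors OCT4, SOX2 and KLF4.

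In these libraries the pair were listed at very different read counts. mir-145a was read in all 6 libraries, at a mean of 113 normalised reads in ESCs and 67.1 in NCs, which is 40.8% lower. Its NC libraries all lay below its ESC libraries, a pattern seen in 45 of the 317 miRNAs tested (14.2%). With all 6 libraries the difference of mir-145a did not pass the test across miRNAs. Its size also depended on scaling. The log2 ratio of the means was -0.75 as deposited and -0.31 at equal summed signal without the miRNA mir-10a (pseudocount 1 in both). mir-143 was listed at 0 in both groups.

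The table holds group means and no value of a single library. Reads of single libraries were recovered from these means by arithmetic, as the processing notes describe, and in each group the library with the largest size factor was named A and that with the smallest C. Size factors, the scale by which reads were divided to give normalised reads, ran from 0.547 to 2.31. The reads recovered ran from 99810 to 371396 per library. They covered 534 of the 549 miRNAs that ESCs had above 0 and 582 of the 602 that NCs had. Weighed by signal rather than by number of miRNAs, recovery reached only 17.4% for ESCs and 10.4% for NCs. Reads were not sought for means above 12000. These totals and the tests thus leave out the most abundant miRNAs, and the totals are not full library depths. Library C, the shallowest of each group, stood apart from A and B for many miRNAs, so mir-145a and each list of related miRNAs are also given within the deeper libraries. The labels were checked against marker miRNAs. All 7 tested members of a list of 13 ESC miRNAs (the clusters of miR-290 and miR-302) were lower in NCs, with a median log2 change of -2.24 against -0.06 over all 317 miRNAs tested. mir-10a, listed with the markers of neuronal or RA-treated cells, had means of 2136 in ESCs and 754551 in NCs and was not tested. Among neuronal markers, mir-9-1 had means of 423 and 768 and was not called with all 6 libraries (limma-voom adjusted p = 0.0793). With library C against A and B as a covariate it was called higher in NCs (limma-voom adjusted p = 0.00401). That fit called 45.1% of all 317 miRNAs. mir-124-1, a gene copy of a defining neuronal miRNA, had means of only 2.44 and 5.25 in ESCs and NCs. Few reads were thus listed for this copy in NCs, and how reads were split between copies is not given.

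Both genes lie on the minus strand of mouse chromosome 18. On build GRCm38, GENCODE places the mir-143 hairpin at 61649196 to 61649258 and the mir-145a hairpin at 61647825 to 61647894, with 1301 bases between them. The RefSeq gene Carmn, the long noncoding host RNA of the pair, covers both hairpins (61645878 to 61665538). GENCODE draws a shorter Carmn (61649625 to 61665537) that stops 366 bases upstream of mir-143, and a second long noncoding gene on the plus strand, Bvht (61639542 to 61647472), ends 352 bases from mir-145a. In that annotation neither hairpin lies in an exon or intron of another gene. A further gene, mir-145b, had no row and so could not be analysed.

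mir-143 was listed at 0 in ESCs and at 0 in NCs, and therefore in libraries A, B and C of each group. A count of 0 allows up to 3 reads (a one-sided limit at about the 95% level), which is 1.85, 3.20 and 5.48 normalised reads in ESC libraries A, B and C and 1.30, 3.07 and 5.13 in NC libraries A, B and C. The exact two-sided Poisson 95% intervals, as used for mir-145a, reach 2.27, 3.94 and 6.74 in the ESC libraries and 1.60, 3.78 and 6.31 in the NC libraries. With 3 reads in every library the group means would be 3.51 and 3.17. mir-145a from the same locus lay at 32.3 times that mean in ESCs and 21.2 times in NCs. mir-143 could thus not be compared between the groups, and no fold change is given for it. In all, 264 of the 898 genes (29.4%) were listed at 0 in both groups.

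How reads were assigned to hairpins is not given in the sources used here, so a listed 0 need not mean that the miRNA was missing from the cells. For example, mir-128-2 was listed at 0, while mir-128-1, with a mature sequence in common, had means of 80.0 and 71.4 in ESCs and NCs. Whether read assignment bears on the 0 of mir-143 was not tested. Of 233 genes at 0 whose mature sequences were found in RefSeq, 4 shared a mature sequence with a gene above 0. For the other 3 of these, the partner had a mean under 2 in each group.

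mir-145a had 183, 88 and 73 reads in ESC libraries A, B and C, or 113, 93.9 and 133 normalised reads. It had 131, 56 and 51 reads in NC libraries A, B and C, or 56.8, 57.3 and 87.2 normalised reads. The highest NC library, C, was below the lowest ESC library, B, so the groups did not overlap. The gap between these 2 libraries was narrow, 7.10%. Counting error alone was wider than that gap, since the exact Poisson 95% interval was 75.3 to 116 for ESC library B and 64.9 to 115 for NC library C. Such intervals cover counting error only.

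**Figure D1:**
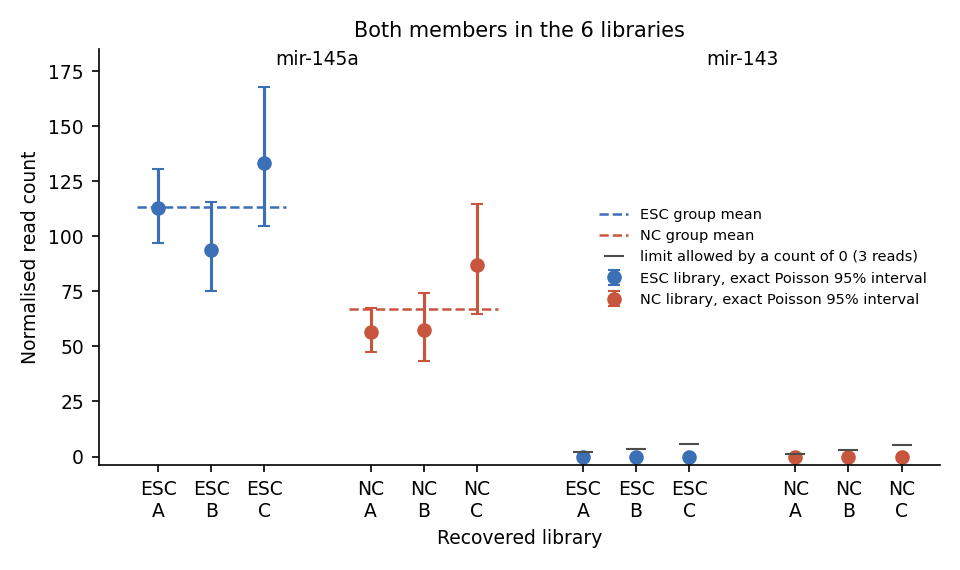
Normalised read count (y axis) of mir-145a and mir-143 in recovered libraries A, B and C of ESCs (blue) and NCs (red). Points are libraries, bars for mir-145a are exact Poisson 95% intervals, dashed lines are the group means of 113 and 67.1, and grey dashes over mir-143 mark the one-sided limit of 3 reads that a count of 0 allows. The 3 NC points of mir-145a lie below the 3 ESC points, and mir-143 is at 0 throughout.

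The means of mir-145a were 113 ± 19.7 normalised reads in ESCs and 67.1 ± 17.4 in NCs (SD, n = 3 libraries each), a 1.69-fold difference. Scaled to equal summed signal without mir-10a, which made up 0.185% of all ESC signal and 47.1% of all NC signal, the log2 ratio of the means was -0.31, against -0.75 as deposited (pseudocount 1 in both). The limma-voom fit over all 6 libraries gave a log2 change of -0.80 (SE 0.27, 95% interval -1.44 to -0.16), with a Benjamini-Hochberg adjusted p of 0.100 over the 317 miRNAs tested. This fit called 50 miRNAs (15.8%) in either direction and 18 (5.68%) lower in NCs. mir-145a was not among them, and it was number 67 of the 317 by p-value. The exact two-sided permutation test of the single miRNA gave p = 0.100, the smallest that 3 libraries against 3 allow. Of the 317, 45 (14.2%) had every NC library below every ESC library, so the lack of overlap of mir-145a was a common pattern. Its log2 change was lower than that of most miRNAs, with 44 of the 317 (13.9%) below it.

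The call differed between fits that treated library C differently. mir-145a was higher in library C than in the mean of A and B, by 0.37 on the log2 scale in ESCs and 0.61 in NCs. The library set (C against A and B) rests only on the rank of the recovered size factors within each group. That the libraries C of both groups belong together is assumed. With this set as a covariate, the log2 change of mir-145a stayed at -0.80 while its SE fell to 0.16, and the limma-voom adjusted p was 0.00221. That fit called 143 of the 317 (45.1%), with 21.5% lower in NCs, so mir-145a was 1 of many. Within the deeper libraries A and B, the means were 103 in ESCs and 57.1 in NCs. The limma-voom log2 change there was -0.87 (SE 0.17, adjusted p = 0.000781), in a fit that called 49.8% of 325 miRNAs in either direction and 21.5% lower. Library C of NCs was 34.6% below library C of ESCs, a log2 difference of -0.61 that has no test with 1 library each. When NC library C alone was left out, the log2 change was -0.96 (limma-voom adjusted p = 0.0467), against 6.08% of miRNAs called lower.

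**Figure D2:**
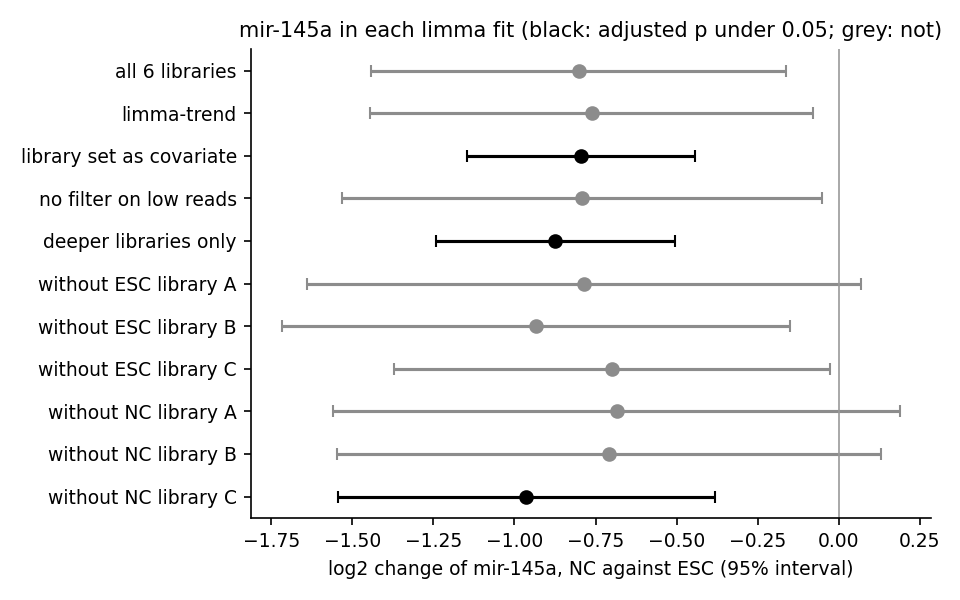
The log2 change of mir-145a in NCs against ESCs (x axis) in each of 11 limma fits (y axis), with 95% intervals. Black points passed an adjusted p of 0.05 and grey ones did not; all 11 points lie below 0, and 3 are black.

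By the order of group means, mir-145a was number 152 of 549 detected miRNAs for ESCs and number 200 of 602 for NCs. Its share of all signal was 0.00983% in ESCs and 0.00419% in NCs. Without mir-10a in the sums these shares were 0.00985% and 0.00791%. Its neighbours in this order were picked by group mean, so their means lie close to its own by choice. Next above it in ESCs was mir-677 (118 ± 70.2, SD, n = 3) and next below was mir-345 (113 ± 61.4). Next above it in NCs was mir-7a-1 (67.3 ± 45.2) and next below was mir-341 (65.9 ± 43.2). These 4 had their lowest value in library C, from 15.4 to 42.0 normalised reads, whereas mir-145a had its highest value there.

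The miRNAs most like mir-145a in profile were sought by the distance of log2 normalised reads over the 6 libraries, among 874 other genes with recovered reads. The 5 nearest were mir-466h (distance 0.76, Pearson's r = 0.91), mir-1968 (0.77, r = 0.96), mir-196a-2 (0.79, r = 0.85), mir-669a-7 (0.80, r = 0.78) and mir-129-1 (0.80, r = 0.76). These r values describe 6 points that share libraries and size factors. The nearest, mir-466h, had 104, 115 and 172 normalised reads in ESC libraries A, B and C and 77.2, 62.5 and 113 in NC libraries A, B and C. All 5 had their highest ESC value and their highest NC value in library C, as mir-145a did, which choice by profile favours. For mir-669a-7 the ESC margin was slight, with 92.8 normalised reads in library B and 93.2 in library C. With all 6 libraries limma-voom called none of the 5, with adjusted p-values from 0.215 to 0.783. With the library set as a covariate, limma-voom called a fall in NCs for mir-466h (adjusted p = 0.00783), mir-1968 (0.0109) and mir-196a-2 (0.0332). It did not call mir-669a-7 (0.271) or mir-129-1 (0.266). That fit called 45.1% of all 317 miRNAs in either direction and 21.5% lower. Choice by profile over the same 6 libraries also favours the direction of mir-145a, so these calls do not set the 5 apart.

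**Figure D3:**
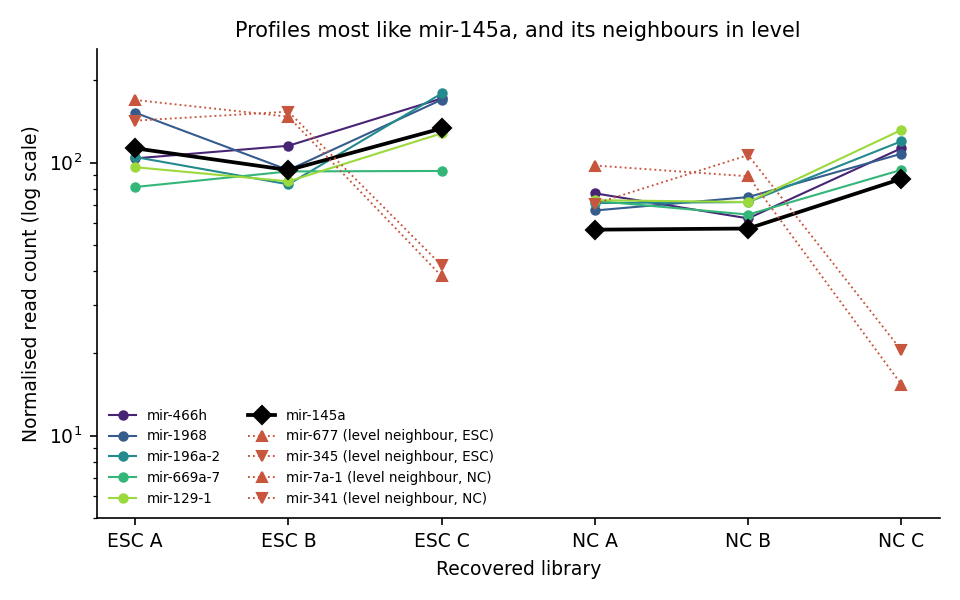
Normalised read count (y axis, log scale) in the 6 recovered libraries (x axis) for mir-145a (black diamonds), the 5 miRNAs nearest to it in profile (circles) and its neighbours in level within each group (red triangles). mir-145a and the 5 nearest peak in library C of each group, where the level neighbours are lowest, at 15.4 to 42.0.

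mir-145a was next set beside 9 other miRNAs known to repress pluripotency factors. miR-134, miR-296 and miR-470 are known to target messengers of Nanog, Oct4 and Sox2 in mouse ESCs, the miR-34 family is induced by p53 and represses Nanog and Sox2, and miR-183, miR-200c and miR-203 act on stem cell factors in epithelial and cancer cells. All 9 were above 0, and 6 were tested. limma-voom on all 6 libraries called 0 of the 6, none had an unadjusted p under 0.05, and limma-trend also called 0. Over all 317 miRNAs 15.8% were called, a share at which 0 of 6 does not set this list apart. With the library set as a covariate 2 were higher and 0 lower, where 45.1% of all were called. Within the deeper libraries 3 were higher and 1 lower, where 49.8% of all were called. The median log2 change of the 6 was 0.29, against -0.06 over all tested.

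The mature sequences of several of these, as RefSeq gives them on build GRCm38.p6, show which share a seed. The seed (bases 2 to 8) is in capitals. The miR-34a strand shown lies at chr4:150068473-150068494 (plus strand), those of miR-34b at chr9:51103610-51103632 and chr9:51103574-51103595, and that of miR-34c at chr9:51103044-51103065 (minus strand). miR-134-5p lies at chr12:109734145-109734166 (plus strand), miR-296-5p at chr2:174267093-174267113 and miR-470-5p at chrX:66813995-66814017 (minus strand). miR-34a and miR-34b share the seed of their 5′ arms, and miR-34b and miR-34c that of their 3′ arms. The seeds shown for miR-134, miR-296 and miR-470 differ from these and from each other. The 5′ arm of miR-34c, the third member of this seed family, is named only. The table counts reads per gene and does not tell the arms apart.
miR-34a-5p: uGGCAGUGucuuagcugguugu
miR-34b-5p: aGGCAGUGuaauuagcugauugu
miR-34b-3p: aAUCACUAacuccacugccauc
miR-34c-3p: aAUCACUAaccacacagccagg
miR-134-5p: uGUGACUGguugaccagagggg
miR-296-5p: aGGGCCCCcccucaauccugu
miR-470-5p: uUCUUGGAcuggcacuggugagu

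The highest of the tested ones was mir-134, with 5038, 4288 and 4125 normalised reads in ESC libraries A, B and C and 3776, 4089 and 4121 in NC libraries A, B and C. Its groups did not overlap, by a margin far smaller than the spread within either group, and its log2 change was -0.17 (SE 0.24). mir-34c had 1561, 1454 and 791 normalised reads in ESC libraries A, B and C and 2572, 2770 and 1471 in NC libraries A, B and C. In each group its library C was lowest, and NC library C fell within the range of ESCs. mir-34b from the same locus had group means of 47.0 and 79.4. Their log2 changes of 0.86 and 0.63 did not pass with all 6 libraries (limma-voom adjusted p = 0.239 and 0.621) and passed with the library set as a covariate (limma-voom adjusted p = 0.000215 and 0.00668). In that fit mir-34b and mir-34c were higher in NCs, and mir-145a was lower. Within the deeper libraries their log2 changes were 0.84 and 0.81 (limma-voom adjusted p = 0.00146 and 4.16e-05).

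For mir-296, mir-470 and mir-34a the libraries of the groups overlapped. Their group means in ESCs and NCs were 591 and 773 for mir-296, 228 and 251 for mir-470, and 591 and 554 for mir-34a. Within the deeper libraries mir-470 was higher in NCs (log2 0.41, limma-voom adjusted p = 0.0272) and mir-34a lower (log2 -0.39, limma-voom adjusted p = 0.0317), whereas mir-34a had a log2 change of 0.10 with all 6 libraries. mir-183 was far above mir-145a, with means of 45340 in ESCs and 26490 in NCs, but its reads were not recovered and it was not tested. mir-200c (1.27 and 1.12) and mir-203 (1.58 and 0.919) had means below the 3.51 and 3.17 that 3 reads in every library would give, and were not tested.

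Since miR-145 is abundant in mesenchymal cells, 12 miRNAs of smooth muscle and mesenchyme were also examined. Of 11 with a row, all were above 0 and 8 were tested. limma-voom called 2 higher and 0 lower in NCs, where 32 of all 317 were called higher and 18 lower. It called 3 higher and 1 lower with the library set as a covariate (143 of all 317 in either direction) and 5 higher and 1 lower within the deeper libraries (162 of all 325). The median log2 change of the 8 was 0.48. Those called with all 6 libraries were mir-199a-1 and mir-199a-2, gene copies of a miRNA typical of mesenchymal cells, between which shared reads may have been split. Without the filter on low reads, 1 of the list was called. mir-199a-1 had 17.3, 16.0 and 21.9 normalised reads in ESC libraries A, B and C and 47.3, 39.9 and 35.9 in NC libraries A, B and C. It rose by a log2 change of 1.23 (SE 0.29, limma-voom adjusted p = 0.0344), opposite to the direction of mir-145a, and by 1.39 within the deeper libraries (limma-voom adjusted p = 0.000794). In the direction of mir-145a, mir-24-2 and mir-27a had log2 changes of -0.61 and -0.57 (limma-voom adjusted p = 0.517 and 0.788). The other tested members had log2 changes above 0. With the library set as a covariate mir-24-2 was lower in NCs (limma-voom adjusted p = 0.0228). mir-214, which is made from the same transcript as one of the mir-199a copies, had too few reads for the test, with means of 1.48 and 10.3. The most abundant of the list was mir-21a, with means of 12454 and 12526, which was not tested because its reads were not recovered. The summed normalised reads of the 8 tested ran from 267 to 412 in ESC libraries and from 202 to 456 in NC libraries, so they overlapped between the groups. The share of any such cells in the level of mir-145a was not tested, and in bulk RNA fewer cells of a type cannot be told apart from less of the miRNA per cell.

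Of 10 miRNAs of cardiac and skeletal muscle, 9 had a row and 6 of these were listed at 0 in both groups. Among them were mir-1a-1, mir-1a-2, mir-133a-1 and mir-133a-2, the defining miRNAs of striated muscle. Only mir-499 was tested, with means of 17.8 and 10.2 a log2 change of -0.76 and a limma-voom adjusted p of 0.485. Within the deeper libraries mir-499 was lower in NCs (log2 -1.17, limma-voom adjusted p = 0.0128). That fit called 49.8% of 325 miRNAs in either direction. Of 8 endothelial and blood miRNAs, 7 had a row and 4 were tested. With all 6 libraries 1 was called higher and 0 lower, where 15.8% of all 317 were called in either direction. With the library set as a covariate 1 was higher and 2 lower, where 45.1% of all were called. Within the deeper libraries 2 were higher and 2 lower, where 49.8% of all were called. The median log2 change of the 4 was -0.87. mir-126a, the typical endothelial miRNA, had means of 2563 in ESCs and 3086 in NCs (limma-voom adjusted p = 0.914, and 0.0180 within the deeper libraries with a log2 change of 0.38). mir-486 rose by a log2 change of 2.04 in NCs (SE 0.51, limma-voom adjusted p = 0.0381), from a mean of 394 to 1641. It was also higher within the deeper libraries (limma-voom adjusted p = 1.86e-08). mir-3107 had nearly the same reads in NC libraries A, B and C (2671, 1246 and 1443, against 2672, 1251 and 1452). Reads may thus have been shared between mir-486 and mir-3107. The blood miRNAs mir-142 and mir-150 were uneven between libraries, and with all 6 their groups overlapped and neither was called (limma-voom adjusted p = 0.350 and 0.342). With the library set as a covariate they were lower in NCs by log2 changes of -1.58 and -2.16 (limma-voom adjusted p = 0.000562 and 5.51e-05), and within the deeper libraries by -1.23 and -1.61. The blood miRNA mir-451a had means of 1.74 and 2.27 and at most 11 reads in a library, too few for the test. The summed reads of the 4 tested ran from 5393 to 15269 in ESC libraries and from 5041 to 6317 in NC libraries. Their part in the values of mir-145a was not tested.

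**Figure D4:**
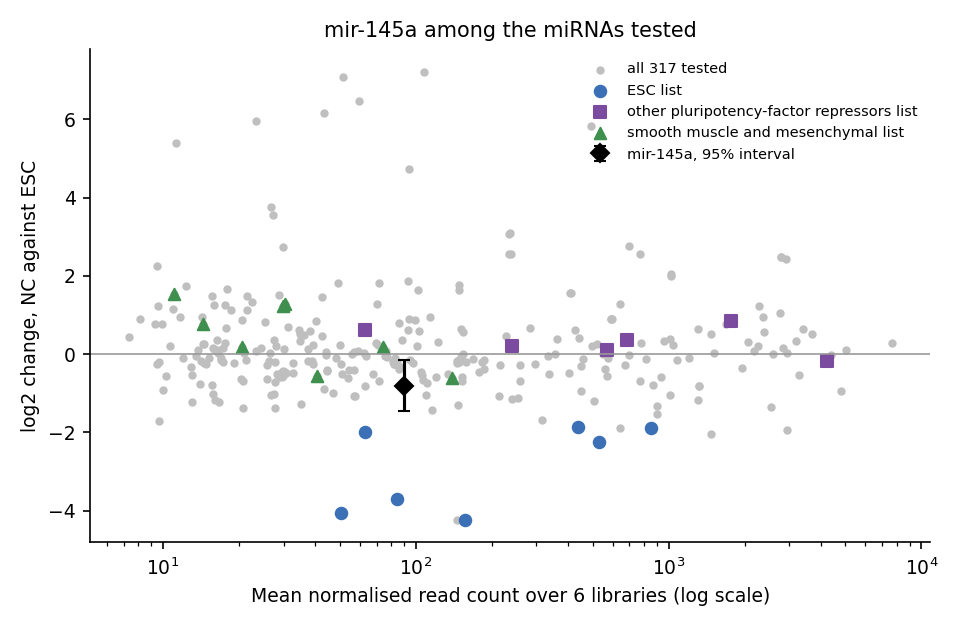
The log2 change in NCs against ESCs (y axis, 0 is no change) of the 317 miRNAs tested against their mean normalised read count over 6 libraries (x axis, log scale), with mir-145a as a black diamond with its 95% interval. The 7 ESC miRNAs (blue) lie from -4.23 to -1.86, below mir-145a at -0.80, and the 6 other pluripotency-factor repressors (purple) lie from -0.17 to 0.86.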

How the data were processed

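The libraries were compared as deposited: the authors' table gives, for each miRNA gene, the signal of each group as the mean of read counts divided by size factors. DESeq and mm10 are named in the submitters' processing notes; how reads were aligned, annotated and counted is not given in the sources used here. Columns of the authors' fold changes and p-values were not used. The members and lists were chosen with earlier results of these data known.

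A group mean is a sum of whole reads times 1 step for each of 3 libraries, and the means carry 10 decimals. Steps were read from the lowest means and refined, and reads were found by enumeration for means up to 12000. Each size factor equalled the ratio of 1 miRNA's reads to its geometric mean. Recovered libraries carry no replicate number. The voom weights and linear models of limma 3.58.1, run in R 4.3.3, were applied where 3 libraries held 10 reads each (2 libraries in fits on fewer than 6), with Benjamini-Hochberg adjustment and a threshold of 0.05. Both steps were tested on simulated data. Named miRNAs were the members, the detected repressors and the called or most abundant members of the other lists. The 5 nearest profiles and the neighbours in level were also named. Named after their values were seen were mir-128-1, mir-128-2, mir-9-1, mir-124-1, the muscle miRNAs at 0, mir-214, mir-142, mir-150, mir-451a, mir-10a, mir-27a and mir-3107. Other steps ran in Python 3.11.15 (scipy 1.17.1, pandas 2.3.3, numpy 2.4.6). Alternatives covered the weights, the filter, the library set, the scaling, the pseudocount and the libraries left out.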

Additional observations from a re-analysis of the deposited data

How the results depend on the processing

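The log2 change of mir-145a was -0.80 with all 6 libraries (limma-voom adjusted p = 0.100) and was below 0 in all 11 limma fits, of which 3 called it. It ranged from -0.96 to -0.69 when 1 library was left out, and only the fit without NC library C called it. It was -0.80 with the library set, defined from the recovered size factors, as a covariate. It was -0.87 within the deeper libraries, a fit chosen after seeing the data, and both fits called it. Scaling moved its size: from the -0.75 that the group means give with a pseudocount of 1, it went to -1.22 at equal summed signal and to -0.31 at equal summed signal without mir-10a, shifts of -0.48 and 0.44 that apply to every miRNA. The count of miRNAs called was 50 with all 6 libraries, 143 with the covariate and 162 within the deeper libraries. Leaving out 1 library gave 17 to 52, where the lowest were 17 (ESC library A left out), 19 (ESC B), 22 (NC B) and 31 (NC A); the cause was not tested. The count called among the other repressors moved from 0 to 2 with the covariate and to 4 within the deeper libraries, that of the ESC list was 7, 7 and 8, and those of the mesenchymal, muscle and blood lists were 2, 0 and 1 with all 6 libraries, 4, 0 and 3 with the covariate and 6, 1 and 4 within the deeper libraries. No paired analysis was possible because no replicate number could be tied to a library read back from the means. Depth limits mir-143: up to 3 reads in a library are compatible with its count of 0.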
